A study of Bos taurus with 8 samples.

Results

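The genes of the proteasome, the protease that degrades ubiquitin-tagged proteins, were examined in endometrium of 8 cows on day 7 after standing estrus. Members were all noncontrol probes whose deposited gene name is PSMA, PSMB, PSMC or PSMD with a number, except the immunoproteasome genes PSMB8, PSMB9 and PSMB10. This gave 35 genes on 71 of the 43653 noncontrol probes, which carry 25325 different gene names. The rule used names alone, and signal entered only in the choice of probe. Each gene was followed through its probe with the highest mean over the 8 arrays.

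Of the 8 cows, 4 had received methylglyoxal at 5 mM and the other 4 had received the fluid at 0 mM, 25 mL into each uterine horn on day 1. Methylglyoxal is a reactive dicarbonyl formed as a by-product of glycolysis, and it modifies arginine and lysine residues of proteins. The biopsy was taken from the horn next to the corpus luteum, and each cow had 1 one-colour Agilent bovine array of its total RNA. Breed, age and the carrier fluid are not given in the sources used here. The comparison asked how endometrial transcripts differed between cows given 5 mM and cows given 0 mM.

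The proteasome has a barrel-shaped core particle and a regulatory particle that caps it. The core is built from outer rings of alpha subunits (PSMA genes), which gate the entrance, and inner rings of beta subunits (PSMB genes), of which PSMB6, PSMB7 and PSMB5 carry the caspase-like, trypsin-like and chymotrypsin-like active sites. The regulatory particle has a ring of ATPases (PSMC genes) that unfold substrates, and non-ATPase subunits (PSMD genes) that bind and remove ubiquitin. Interferons induce PSMB9, PSMB10 and PSMB8, which replace PSMB6, PSMB7 and PSMB5 in the immunoproteasome. Proteasome genes are known to be transcribed in concert, in mammals through the factor NFE2L1 when proteasome activity is short.

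Spots well above background made up 68.3% to 73.2% of an array. The 75th percentile of its signal was 1032 to 1456 intensity units, without any saturated spot. Levels below are log2 signals minus that percentile of the same array, and differences are 5 mM minus 0 mM. The biopsies were mixed tissue, and 1 of them stood apart. On the array of 5 mM replicate 1 the mean of 14 epithelial markers (such as EPCAM and CDH1) lay at -3.42 relative to the markers' own means, with 10 of the 14 well above background. On the other 3 arrays from 5 mM cows this mean lay between 0.33 and 0.55, and on the 4 arrays from 0 mM cows between 0.28 and 0.92, with all 14 markers well above background. Smooth muscle markers (11 measured, such as DES and MYH11) averaged 2.69, -1.31, 1.74 and -0.88 in 5 mM replicates 1 to 4, against 1.32, -1.66, -1.01 and -0.90 in 0 mM replicates 1 to 4. The 15 measured leukocyte markers averaged -0.79, -0.26, -0.39 and -0.015 in 5 mM cows, against -0.16, 0.63, 0.43 and 0.54 in 0 mM cows. In bulk tissue, fewer cells of a type and less RNA per cell cannot be told apart.

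The sequences below are the first 30 bases, 5′ to 3′, of the 60-base probes that the results turn on, with their positions on the bovine build HGSC Btau_3.1 as deposited. No genome of that build was used here, so the exon or untranslated region under a probe is not stated. The first set holds the 3 constitutive catalytic subunits, each followed by its immunoproteasome counterpart, and has no capitals.
PSMB6 (chr19:26938979-26939038, minus strand): gcaggtacttctgggagaccagattcccaa
PSMB9 (chr23:7399900-7399959, plus strand): caagattctatgacgagtgaatctccttcc
PSMB7 (chr11:98624298-98624357, minus strand): aggctccccctgtaagacattcggccagtg
PSMB10 (chr18:34441558-34441728, minus strand): tgaaaagatccacttcatcgcccccaaaat
PSMB5 (chr10:22117089-22117148, plus strand): ctctgatgcattgacctccatgtgttacca
PSMB8 (chr23:7379740-7379799, minus strand): cccagagacggagaaccagcggccactgga

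The second set holds probes that show how far a gene's own probes repeat each other. Capitals mark bases of the longest run shared by both probes of PSMC4 or of PSMA5, and shorter shared runs stay in lower case. The PSMD13 probes, shown because that gene has the member probe of lowest p, have no capitals and are unmapped on the array. PSMC4 carries the same 60 bases under 2 probe names, and the longest shared run of the PSMA5 probes is 34 bases long.
PSMC4, both probes (chr18:49137142-49137201, plus strand): CCCCAAACCTAGTTCTCTTTCCTCTTTACC
PSMA5, first probe (chr3:36710757-36710816, plus strand): ttgcccttaacttttatttccagctcCAGT
PSMA5, second probe (chr3:36710758-36710817, plus strand): tgcccttaacttttaatttcagcttCAGTT
PSMD13, probe 1: actgcacccacatgtgtgaatggcttctcc
PSMD13, probe 2: ttctcaggaagattcagttactgtgcctca
PSMD13, probe 3: ttttgaagaaattgccagaagcgctaaaat

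All 35 genes were measurable: 67 of the 71 probes were well above background on all 8 arrays and were tested. The other 4 probes, extra ones for PSMA1, PSMA7, PSMB3 and PSMD7, were well above background on no array. Through their accessions, 64 of the 71 probes had a RefSeq symbol equal to the deposited name. On the array's build, 32 of the 35 chosen probes were mapped, to 15 chromosomes, with 6 of them on chromosome 19, while those of PSMB1, PSMC2 and PSMD13 were unmapped.

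No proteasome subunit gene passed the adjusted threshold between 5 mM and 0 mM cows. By limma with Benjamini-Hochberg adjustment over all 31108 tested probes, 0 of the 35 genes had an adjusted p under 0.05, and 0 had an unadjusted p under 0.05. Across the array 0% passed the adjusted threshold and 1.91% (595 probes) had an unadjusted p under 0.05. The lowest member p was 0.154, for PSMC4, and the smallest adjusted p of any member and of any probe on the array was 0.913. Member differences ran from -0.36 (PSMD10) to 0.23 (PSMB6), a fold of 0.777 to 1.17.

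The members were measured more tightly than most of the array. Their median standard error was 0.15 on the log2 scale, against 0.24 over all tested probes and 0.20 over the 10811 tested probes whose mean lay above the 75th percentile, where 32 of the 35 members lie. For 26 of the 35 members the whole 95% confidence interval of the difference lay within 1.5-fold, and this held for 31.2% of all tested probes. For the chosen probes of these 26 genes, each taken alone, a change of 1.5-fold or more lies outside the interval. Over all 67 tested member probes 48 had such an interval. Another probe of PSMB4, 1 of the 26 genes, had an interval of -1.03 to 1.79. The other 9 intervals were wider, and the outermost bounds were -1.06 (PSMD10) and 0.66 (PSMD4).

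In 5 mM cows 25 of the 35 genes had a higher mean and 10 a lower one, with a median difference of 0.038. Of all tested probes 53.1% had a higher mean and 46.9% a lower one, with a median of 0.021, and of the tested probes above the 75th percentile 57.7% did, with a median of 0.041. The split depended on 1 array of the 0 mM group and on the scaling. Without 0 mM replicate 4, 17 of 35 genes had a higher mean and the median was -0.0015, and without 5 mM replicate 1 the count was 24 and the median 0.074. The share of all tested probes with a higher mean is not given here for these fits, so members and whole array cannot be compared in them. Quantile normalization gave 20 higher and a median of 0.018, where 54.7% of all tested probes were higher, with a median of 0.030. A shift of each array to its median gave 28 and 0.094, but it also moved the whole array, with 60.8% of all tested probes higher and a median of 0.077. Slides 1, 2 and 3, each scanned together, held arrays of both groups, and within them 21, 23 and 28 members were higher, with medians of 0.043, 0.027 and 0.20. Of all tested probes 56.2%, 54.4% and 46.8% were higher within these slides, with medians of 0.10, 0.027 and -0.025.

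**Figure D1:**
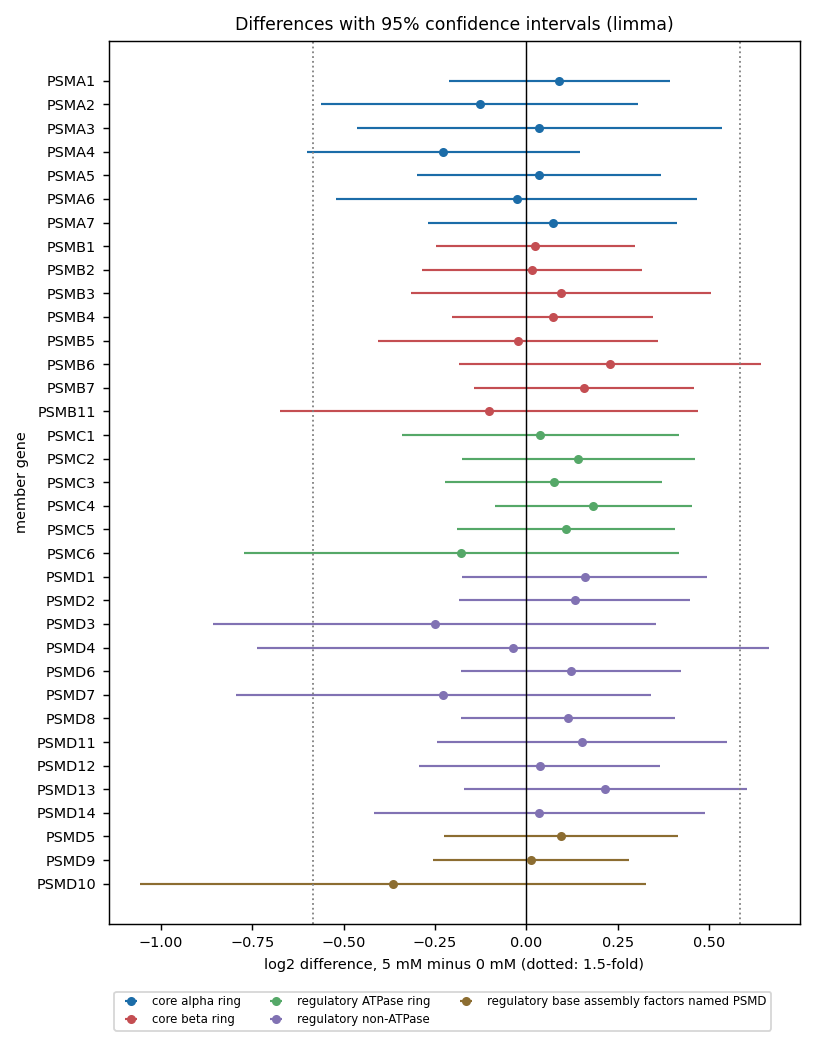
Log2 difference (5 mM minus 0 mM, horizontal axis) of each member gene with its 95% confidence interval from limma, coloured by role, with dotted lines at 1.5-fold. All 35 intervals include 0, and 26 lie wholly between the dotted lines.

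Among the alpha subunits, which form the gated outer rings of the core, 4 of 7 genes had a higher mean in 5 mM cows, with a median difference of 0.034. The alpha subunit with the lowest p was PSMA4 (chr21:30990941-30991000). Its levels were 2.38, 2.68, 2.31 and 2.68 in 5 mM cows, against 2.64, 2.95, 2.83 and 2.53 in 0 mM cows. The groups overlapped, since 2 of the 5 mM values lay above 0 mM replicate 4. The means were 2.51 ± 0.20 in 5 mM cows and 2.74 ± 0.19 in 0 mM cows (SD, n = 4 each), a difference of -0.23 ± 0.16 (SE), with an adjusted p of 0.913 by limma.

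PSMA5 read 3.73, 4.09, 4.05 and 4.09 in 5 mM cows, against 3.92, 4.03, 4.07 and 3.79 in 0 mM cows. Replicate 1 of the 5 mM group was the lowest of the 8 arrays, and the other 3 lay close together at the upper end. The difference was 0.034 with all cows and 0.12 without 5 mM replicate 1. The remaining alpha genes (PSMA1, PSMA2, PSMA3, PSMA6 and PSMA7) had differences between -0.13 (PSMA2) and 0.090 (PSMA1).

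Of the beta subunits, which form the inner rings, 6 of 8 genes had a higher mean in 5 mM cows, with a median difference of 0.048. PSMB6, the caspase-like subunit, had the largest difference above 0 of all members. It read 3.13, 3.20, 3.74 and 3.61 in 5 mM cows, against 3.04, 3.15, 3.32 and 3.24 in 0 mM cows. The 2 high values were those of 5 mM replicates 3 and 4, which share slide 3 with 0 mM replicate 4, while replicates 1 and 2 lay among the 0 mM cows. Within slides 1, 2 and 3 the difference was 0.092, -0.040 and 0.43. The means were 3.42 ± 0.30 in 5 mM cows and 3.19 ± 0.12 in 0 mM cows (SD, n = 4 each), and the difference was 0.23 ± 0.18 (SE), with an adjusted p of 0.913 by limma.

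PSMB7, the trypsin-like subunit, read 4.41, 4.30, 4.48 and 4.31 in 5 mM cows, against 4.13, 4.07, 4.33 and 4.35 in 0 mM cows. Of the 0 mM cows 2 lay within the range of the 5 mM cows and 2 below it, and the difference was 0.16 ± 0.13 (SE). For PSMB5, the chymotrypsin-like subunit, the spot of 5 mM replicate 2 carried an outlier mark from Agilent Feature Extraction and was left out. Its levels were 3.18, 3.43 and 3.66 in 5 mM replicates 1, 3 and 4, against 3.42, 3.42, 3.50 and 3.46 in 0 mM cows. The 0 mM cows were close together, with 1 of the 5 mM cows below, 1 among and 1 above them, and with a difference of -0.023 ± 0.16 (SE) that became 0.28 under another background correction (normexp).

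The beta genes without an active site, PSMB1, PSMB2, PSMB3 and PSMB4, had differences between 0.016 (PSMB2) and 0.093 (PSMB3). PSMB1 varied least among the beta genes, with a range of 0.19 over all 8 arrays. PSMB11, known in mice and humans as the beta subunit of the thymic proteasome, was far below the percentile level on every array. It read -4.95, -5.98, -5.98 and -5.91 in 5 mM cows, against -5.49, -5.53, -5.72 and -5.67 in 0 mM cows. Replicate 1 of the 5 mM group was the highest of the 8 arrays and the other 3 of its group were the lowest.

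**Figure D2:**
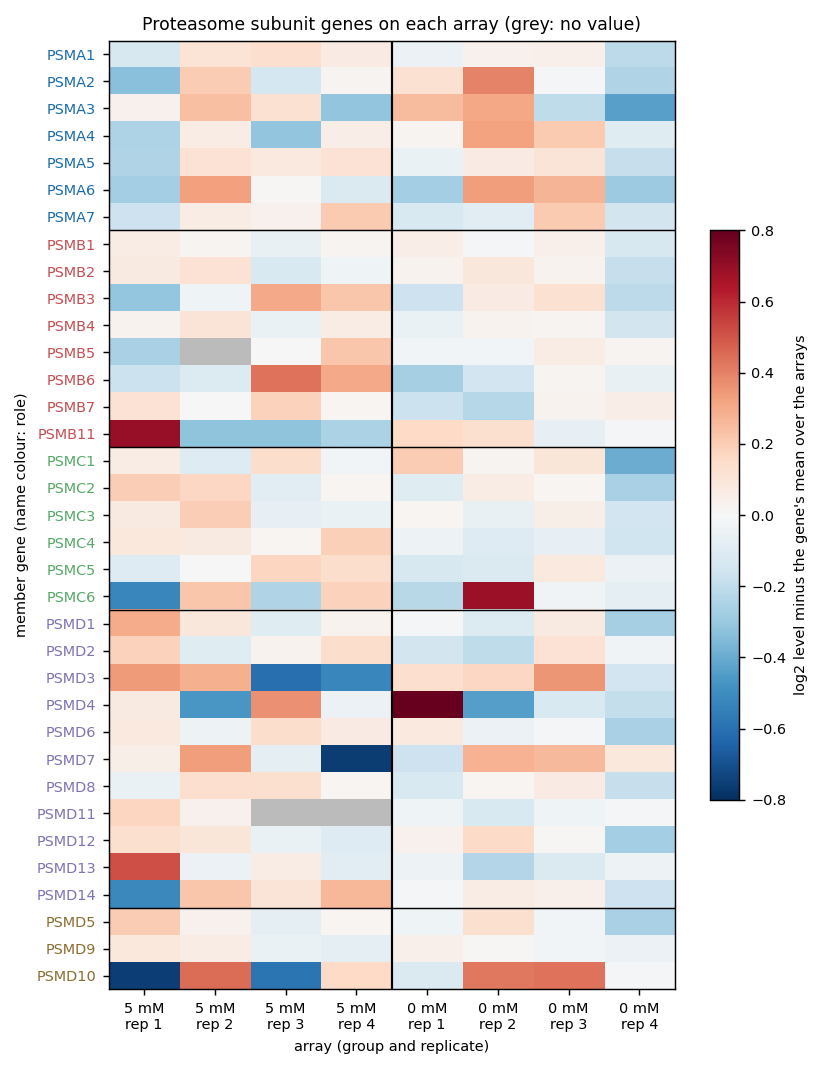
Log2 level of each of the 35 member genes (rows, coloured by role) on each array (columns, 5 mM left and 0 mM right), minus the gene's mean over the arrays, with missing values in grey. The column of 0 mM replicate 4 is mostly blue, with 3 of 35 genes above their own mean, and 5 mM replicate 1 holds both the highest and the lowest values of many genes.

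In the ATPase ring, which unfolds substrates and feeds them into the core, 5 of 6 genes had a higher mean in 5 mM cows, with a median difference of 0.092. PSMC4 (chr18:49137142-49137201), whose probe is printed above, was the member of lowest p. Its levels were 2.96, 2.96, 2.90 and 3.07 in 5 mM cows, against 2.84, 2.78, 2.82 and 2.72 in 0 mM cows. Every 5 mM cow lay above every 0 mM cow, by a small margin, and within slides 1, 2 and 3 the difference was 0.12, 0.16 and 0.26. The means were 2.97 ± 0.07 in 5 mM cows and 2.79 ± 0.05 in 0 mM cows (SD, n = 4 each), a 1.14-fold difference (log2 0.18 ± 0.12, SE) with an adjusted p of 0.913 by limma.

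PSMC4 and PSMD11 were the 2 members whose groups did not overlap. This is 2 of 35 genes, against 1.54% of all tested probes (1.02% with the 5 mM group above). PSMD11, a lid subunit of the regulatory particle, was measured in only 2 of the 5 mM cows. The spots of replicates 3 and 4 carried outlier marks from Agilent Feature Extraction. It read 3.32 and 3.18 in those 5 mM cows, against 3.12, 3.03, 3.11 and 3.14 in 0 mM cows. The count was 1 under quantile normalization, under normexp and in the authors' deposited value table, 3 under the median shift, 4 without 5 mM replicate 1 and 1 without 5 mM replicate 2.

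PSMC6 was the ATPase with a lower mean in 5 mM cows. It read 2.96, 3.70, 3.24 and 3.66 in 5 mM cows, against 3.25, 4.16, 3.45 and 3.40 in 0 mM cows. The highest of the 8 was 0 mM replicate 2 and the lowest 5 mM replicate 1, and the difference was -0.18 ± 0.26 (SE), or -0.034 without 5 mM replicate 1. PSMC1, PSMC2, PSMC3 and PSMC5 differed by 0.038 to 0.14.

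Among the non-ATPase subunits of the regulatory particle 8 of 11 genes had a higher mean in 5 mM cows, with a median difference of 0.11. PSMD13, a lid subunit, read 4.78, 4.22, 4.32 and 4.17 in 5 mM cows, against 4.22, 4.03, 4.15 and 4.22 in 0 mM cows. Replicate 1 of the 5 mM group set the difference apart: it was 0.22 ± 0.17 (SE) with that array and 0.081 without it. PSMD1, a large scaffold subunit that docks the ubiquitin receptor ADRM1, read 3.02, 2.81, 2.62 and 2.75 in 5 mM cows, against 2.70, 2.61, 2.79 and 2.45 in 0 mM cows. The groups overlapped, and the difference was 0.16 ± 0.15 (SE), or 0.087 without 5 mM replicate 1, the highest of the 8 arrays.

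PSMD3, another lid subunit, fell into high and low arrays. It read 3.44, 3.38, 2.49 and 2.57 in 5 mM cows, against 3.23, 3.26, 3.45 and 2.94 in 0 mM cows. The 3 lowest values were the 3 arrays of slide 3, which holds 5 mM replicates 3 and 4 and 0 mM replicate 4. The difference was -0.25 ± 0.26 (SE), and -0.084 with slide as a block, and within slides 1, 2 and 3 it was 0.20, 0.028 and -0.41. The other tested PSMD3 probe, far below the percentile level on every array, did not repeat the slide pattern. It was lowest on 5 mM replicate 1 (-5.89) and read -5.51 on 0 mM replicate 4. PSMD7, the partner of the deubiquitinase PSMD14 in the lid, read 3.39, 3.67, 3.26 and 2.58 in 5 mM cows, against 3.17, 3.62, 3.59 and 3.42 in 0 mM cows. Replicate 4 of the 5 mM group was the lowest of the 8, and the difference was -0.23 ± 0.25 (SE), or -0.012 without that array.

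PSMD4, a ubiquitin receptor, had the widest range of the non-ATPase genes, 1.29 over the 8 arrays. It read 2.79, 2.25, 3.08 and 2.67 in 5 mM cows, against 3.54, 2.28, 2.59 and 2.53 in 0 mM cows. The high value of 0 mM replicate 1 recurred on every tested PSMD4 probe, each of which was highest on that array. PSMD2, PSMD6, PSMD8, PSMD12 and PSMD14 differed by 0.035 (PSMD14) to 0.13 (PSMD2).

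PSMD5, PSMD9 and PSMD10 are known, from human and yeast, as factors that help assemble the base of the regulatory particle and leave it afterwards. PSMD10 (gankyrin) read -1.28, -0.07, -1.10 and -0.36 in 5 mM cows, against -0.64, -0.10, -0.09 and -0.53 in 0 mM cows. The 2 lowest values were 5 mM replicates 1 and 3, the arrays with the highest smooth muscle marker means, whose part in the difference was not tested. The difference was -0.36 ± 0.30 (SE), the lowest of all members, with an adjusted p of 0.913 by limma. Without 5 mM replicate 1 it was -0.17, when PSMD3 (-0.41), PSMB11 (-0.35), PSMD7 (-0.28) and PSMA4 (-0.18) lay lower. PSMD5 and PSMD9 differed by 0.095 and 0.012.

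Of the 8 arrays, 0 mM replicate 4 had the lowest member median and 5 mM replicate 1 the widest spread of members. On 0 mM replicate 4 the members' median lay at -0.15 relative to the gene means, 3 of 35 genes were above their own mean, and 15 of 35 had their lowest value of the 8 arrays there. The median of all tested probes on that array, measured in the same way, was 0.020. The share of all tested probes with their lowest value on that array is not given here. Under quantile normalization the members' median on it was -0.13, under the median shift -0.23 and under normexp -0.16. On the other 7 arrays the members' median lay between -0.037 and 0.082. Its endothelial marker mean of 0.34 was the highest of the 8 arrays, where the next was 0.23, and its epithelial mean of 0.28 was the lowest apart from that of 5 mM replicate 1. Its smooth muscle and leukocyte means, -0.90 and 0.54, lay inside the range of the other arrays. The part of these cell types in the low values was not tested.

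The array of 5 mM replicate 1, the one low in epithelial markers, did not shift all members one way. It had the lowest value of 8 members and the highest of 9. It also had the widest spread of members about their own means (SD 0.29, against 0.12 to 0.22 on the other 7). The same counts and spread over all tested probes are not given here. Its limma array weight, fitted over tested probes and lower for an array that varies more, was 0.19, against 0.84 to 1.69 on the other 7. Alpha subunits averaged -0.19 there and non-ATPase subunits 0.12. PSMA2, PSMA5, PSMA7, PSMB3, PSMB5, PSMC6, PSMD14 and PSMD10 were lower there than on all other arrays, and PSMB1, PSMB11, PSMC2, PSMD1, PSMD2, PSMD11, PSMD13, PSMD5 and PSMD9 were higher. The part of tissue makeup in this was not tested.

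**Figure D3:**
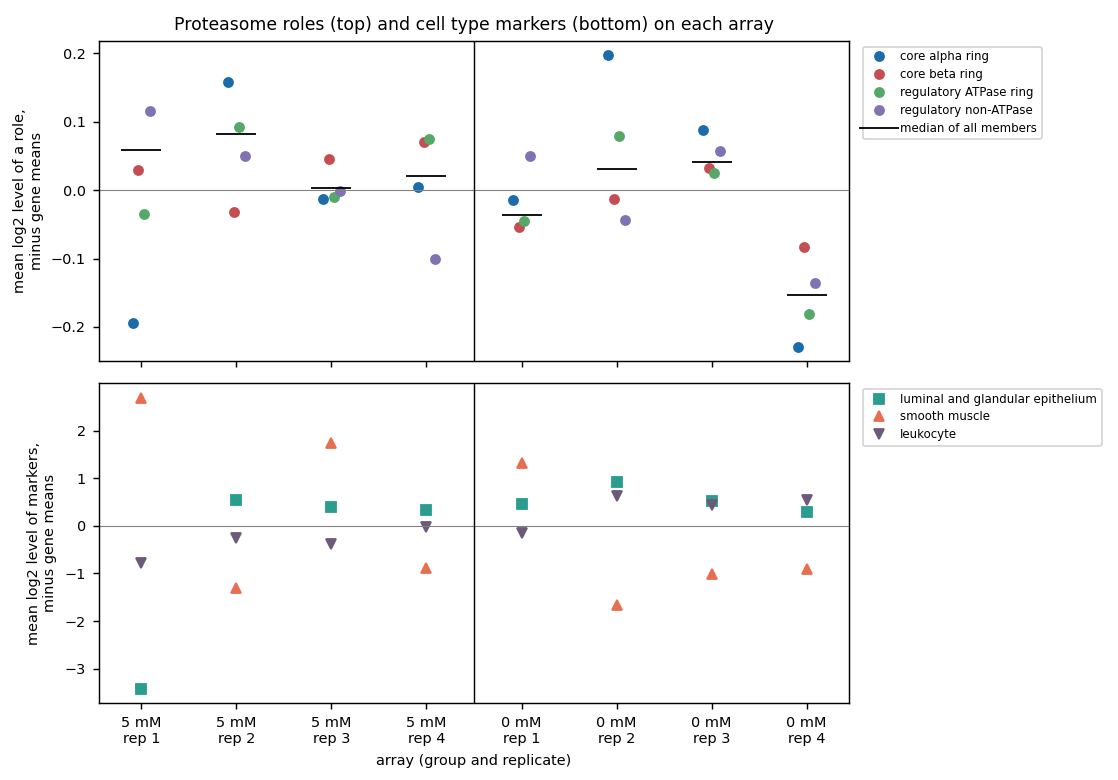
Mean log2 level of each proteasome role except the base assembly factors (top, with the median of all members as a black bar) and of 3 cell type marker lists (bottom) on each array, minus gene means, with 5 mM arrays left and 0 mM arrays right. The 4 roles shown each have their lowest mean on 0 mM replicate 4, alpha and non-ATPase means part on 5 mM replicate 1, and epithelial markers on that array lie at -3.42.

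As a description of how members varied together, the deviations of each gene from its group means were correlated between genes over the 8 arrays. Over the 528 pairs of the 33 members without a missing value the mean Pearson's r was 0.16, and it was 0.0033 over all tested probes. It was 0.56 among the 7 alpha genes, 0.12 among the ATPases, 0.093 among the non-ATPase genes and -0.024 among the beta genes. All points share the same 8 arrays and their scaling. Without 5 mM replicate 1 and 0 mM replicate 4 the mean was 0.045 over members and 0.24 over the alpha genes.

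Different probes of one gene gave a second view of the same transcripts, and 21 members had 2 or more tested probes. In 11 of them all probes had a difference of one sign, and in 10 both signs occurred. The identical PSMC4 probes gave differences of 0.183 and 0.178, and their levels differed by -0.049 to 0.13 on single arrays. The overlapping PSMA5 probes gave 0.034 and -0.038. Both PSMA5 values were smaller than the standard error of 0.14.

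The 3 PSMD13 probes, which share no run longer than 5 bases, had differences of 0.22, 0.39 and 0.27, each with a higher mean in 5 mM cows. The second of them was the only one of the 67 tested member probes with an unadjusted p under 0.05 (adjusted p = 0.913, limma), a rate close to the 1.91% of the whole array. It read 1.89, 1.66, 1.52 and 1.37 in 5 mM cows, against 1.13, 1.10, 1.35 and 1.29 in 0 mM cows, without overlap. On the other 2 probes the groups overlapped, and 5 mM replicate 1 was the highest array on all 3.

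Members whose probes went both ways differed by little on most of them. PSMA4 had -0.23 and 0.17, PSMA6 had -0.026, 0.020 and 0.087, and PSMA7 had 0.072, 0.13, -0.11 and 0.0013. PSMB2 had 0.016 and -0.0054, PSMC5 had 0.11, 0.040 and -0.026, and PSMD14 had 0.035 and -0.15. For the scaffold gene PSMD1 the 5 probes gave 0.16, -0.028, 0.056, -0.00044 and -0.068. PSMD4 had -0.037, -0.21, 0.19 and -0.028, and PSMD8 had 0.11, 0.025 and -0.027. The second PSMB4 probe, with 0.38, had 2 values removed by outlier marks and ran from 1.52 to 3.72 over the other 6 arrays.

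**Figure D4:**
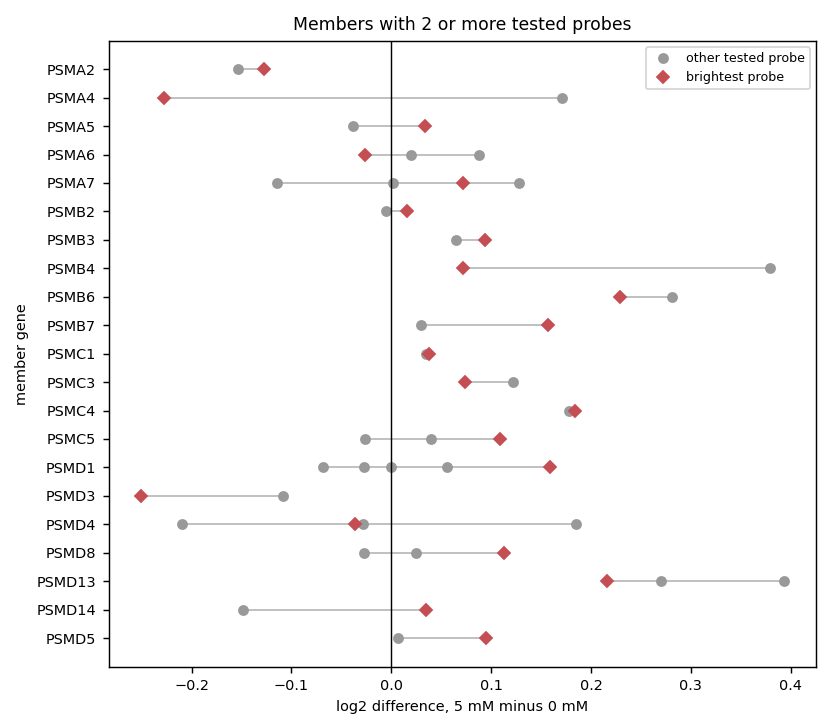
Log2 difference (5 mM minus 0 mM, horizontal axis) of every tested probe of the 21 members with 2 or more, the brightest probe as a red diamond and the others as grey circles. PSMC4's points coincide at 0.18, PSMD13's 3 points all lie right of 0, and 10 genes have points on both sides of 0.

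The immunoproteasome subunits, which are not members, spread over a wider range than their constitutive counterparts. PSMB9 read 0.34, 2.81, 1.84 and 3.22 in 5 mM cows, against 2.02, 3.46, 3.28 and 3.14 in 0 mM cows. PSMB10 read -1.96, -0.28, -0.91 and 0.0072 in 5 mM cows, against -0.73, 0.14, 0.22 and -0.029 in 0 mM cows. PSMB8 read 0.17, 2.05, 1.16 and 2.12 in 5 mM cows, against 1.34, 2.61, 2.50 and 2.04 in 0 mM cows. In all 3 genes 5 mM replicate 1 was the lowest array and the groups overlapped. The differences were -0.93 ± 0.63, -0.69 ± 0.44 and -0.75 ± 0.48 (SE), each with an adjusted p of 0.913 by limma. Without 5 mM replicate 1 they were -0.35 for PSMB9, -0.30 for PSMB10 and -0.34 for PSMB8.

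Each was then set against the subunit it replaces, as a difference of log2 levels within an array. PSMB9 over PSMB6, relative to its own mean, was -2.00, 0.40, -1.11 and 0.41 in 5 mM cows, against -0.22, 1.10, 0.75 and 0.68 in 0 mM cows. The group difference was -1.15, with p = 0.143 in an exact two-sided permutation test. PSMB10 over PSMB7 differed by -0.84 (exact permutation p = 0.171), and PSMB8 over PSMB5 by -0.95 (exact permutation p = 0.114, 3 against 4 cows, where 0.0571 is the smallest possible). Adjusted over these 3 pairs each exact permutation p was 0.171, and the smallest that 4 against 4 cows allow is 0.0286.

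Marker genes of 3 cell types were set beside these genes. For all 3 immunoproteasome genes the 3 lowest arrays were 5 mM replicates 1 and 3 and 0 mM replicate 1, on which smooth muscle markers had their 3 highest means (2.69, 1.74 and 1.32). Of the 11 smooth muscle markers 11 had a higher mean in 5 mM cows, with a median difference of 1.10. Of the 14 epithelial markers 0 did, with a median of -1.17. The epithelial mean was -3.42 on 5 mM replicate 1. On 5 mM replicate 3 and 0 mM replicate 1 it was 0.38 and 0.45, inside the range of the remaining arrays. Of the 15 leukocyte markers 13 had a lower mean in 5 mM cows, with a median difference of -0.73. Their summary ran from -0.79 to -0.015 in 5 mM cows and from -0.16 to 0.63 in 0 mM cows. On 5 mM replicate 2 it was -0.26, below the -0.16 of 0 mM replicate 1. Without 5 mM replicate 1 the 3 pairs differed by -0.68, -0.44 and -0.58. The part of smooth muscle, epithelium or leukocytes in these differences was not tested.

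**Figure D5:**
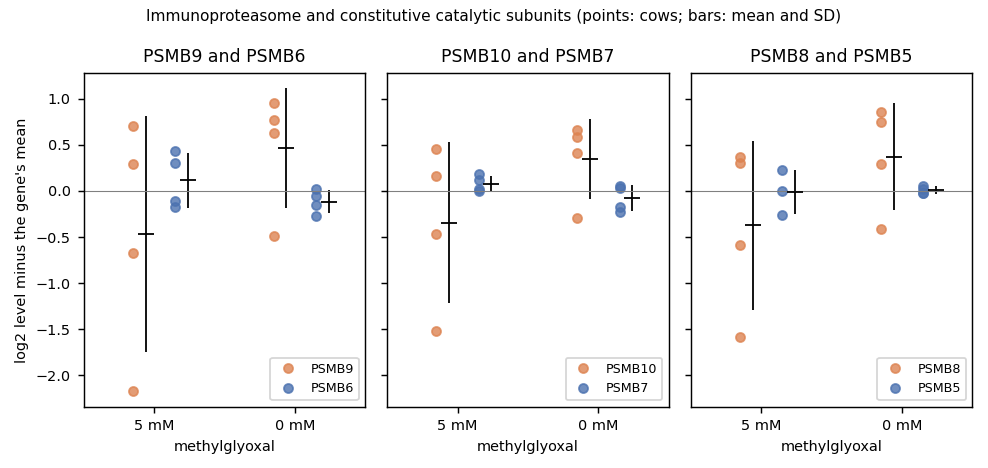
Log2 level minus the gene's mean for each immunoproteasome subunit (orange) and the constitutive subunit it replaces (blue) in the cows of both groups, 5 mM left of 0 mM, with group means and SD as black bars. The orange points spread from -2.2 to 1.0 and overlap between groups, while the blue points stay within -0.27 and 0.44.

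Genes that act with the proteasome were read from lists of 45 measured genes. Of these, 23 had a higher and 22 a lower mean in 5 mM cows, 0 had an adjusted p under 0.05, and 2 had an unadjusted p under 0.05 by limma, against 1.91% of the array. PSMG4, an assembly chaperone of the core, read 5.50, 4.56, 5.38 and 4.87 in 5 mM cows, against 4.27, 4.23, 4.28 and 4.66 in 0 mM cows. Only 5 mM replicate 2 lay below a 0 mM cow, and the difference was 0.72 ± 0.24 (SE), with an adjusted p of 0.913 by limma. On the other tested PSMG4 probe the difference was 0.40 ± 0.29 (SE), and 5 mM replicates 2 and 4 each lay below a 0 mM cow. UCHL5, a deubiquitinase of the regulatory particle, read 2.78, 2.40, 2.76 and 2.28 in 5 mM cows, against 2.15, 2.10, 2.23 and 2.02 in 0 mM cows, without overlap. Its difference was 0.43 ± 0.16 (SE), with an adjusted p of 0.913 by limma, and its 4 tested probes ran from -0.043 to 0.43. On their chosen probes both genes were highest on 5 mM replicates 1 and 3, where smooth muscle markers were also highest. On 0 mM replicate 1, next in smooth muscle marker mean (1.32), these probes of PSMG4 (4.27) and UCHL5 (2.15) lay below every 5 mM cow. Their other tested probes did not repeat this. The other PSMG4 probe read 2.89 there, above 5 mM replicates 2 (2.76) and 4 (2.50). Each other UCHL5 probe lay above 5 mM replicate 4 there. The part of smooth muscle cells was not tested.

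Of the 5 activators and inhibitors 2 had a higher mean. The lowest p were those of the inhibitor PSMF1 (-0.30), the activator PSME4 (0.080) and PSME2 (-0.22), a subunit of the interferon-induced activator cap. Each had tested probes of both signs, from -0.30 to 0.11 for PSMF1, -0.27 to 0.26 for PSME4 and -0.22 to 0.033 for PSME2. PSME2 read 3.56, 3.39, 2.20 and 2.08 in 5 mM cows, against 3.44, 3.18, 3.30 and 2.21 in 0 mM cows. Its 3 low values were again the 3 arrays of slide 3, as for the chosen PSMD3 probe. Of 6 assembly genes 3 had a higher mean, PSMG2 and PSMG1 differing by 0.10 and -0.15. The tested PSMG2 probes ran from -0.95 to 0.10 and those of PSMG1 from -0.15 to -0.12. Of 11 partners and ubiquitin receptors of the regulatory particle 7 had a higher mean, with UBQLN2 at 0.26 and SEM1 at 0.095.

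For ubiquitin and its activation, 5 of 6 genes had a higher mean. The activating enzyme UBA6 lay at 0.22, with tested probes from -0.12 to 0.22. RPS27A, which encodes ubiquitin fused to a ribosomal protein, lay at 0.15. For the VCP segregase, which extracts proteins for degradation, 2 of 6 genes had a higher mean, with FAF1 at 0.29, UFD1 at -0.13 and VCP itself at -0.16. The tested probes ran from 0.29 to 0.32 for FAF1, -0.13 to 0.047 for UFD1 and -0.29 to 0.010 for VCP. Of 8 regulators of proteasome gene transcription 4 had a higher mean, with NFYB at 0.15, NFYC at 0.14 and NGLY1, the glycanase that NFE2L1 requires, at -0.14. The tested NFYB probes ran from -0.026 to 0.15, while those of NFYC and NGLY1 each kept one sign. NFE2L1 read 2.48, 3.07, 3.11 and 3.07 in 5 mM cows, against 2.65, 3.17, 3.15 and 3.33 in 0 mM cows. Its difference was -0.15 ± 0.21 (SE), and 0.0051 without 5 mM replicate 1, and its tested probes ran from -0.19 to 0.030.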

How the data were processed

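The deposited arrays hold spot intensity values on a linear scale, background-subtracted and detrended within each array by Agilent Feature Extraction (version 11.5.1.1 per the file headers, 10.5.1.1 per the submitters' processing notes). Control spots and spots with an outlier mark were left out, the remaining log2 values of a probe were averaged, and each array was shifted so that its 75th percentile lay at 0. Probes well above background on at least 4 of 8 arrays were tested (31108) with limma 3.58.1 (lmFit, eBayes) in R 4.3.3, group as the only term, Benjamini-Hochberg adjustment over all of them and a threshold of 0.05. The test was tried on simulated data.

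Each sample is a separate cow per the labels, and the number of arrays limits the precision. The members and lists were chosen with earlier results of these data known. Members carry the deposited gene names, and the other lists were named through accessions in a RefSeq table (ARS-UCD2.0). Per-array values are given for the 5 members of lowest p in each direction, the 3 catalytic subunits and members with a value set apart in a group. Also named are members whose probes disagree in sign and the 3 lowest-p genes of each list, of which 1 is not reported here. PSMD11, PSMD4 and PSME2 were added after their values were seen.

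The deposited value table holds log2 values. Its columns correlated at 0.9995 or more across probes with the values used here after centring each probe on its median, so scale, centring and direction were found. The column medians are 0.13, -0.0049, -0.011 and 0.013 in the 5 mM cows (replicates 1 to 4) and -0.016, -0.023, 0.00088 and -0.0062 in the 0 mM cows. It served as an alternative, beside normexp (offset of 50), a shift to the median, quantile normalization, other filters, eBayes with trend, array weights, the mean over a gene's probes, RefSeq names for members, a replicate block, leaving out each cow, and slide as a block or split by slide. The immunoproteasome pairs and their alternatives were added after seeing the data.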

Additional observations from a re-analysis of the deposited data

Results flagged for a closer look

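In the 5 mM group 1 of 4 cows stood apart from the other 3 for PSMA5 and for PSMB11, by Dixon's criterion, and both times it was replicate 1. PSMA5 read 3.73 there, and the nearest other 5 mM cow read 4.05, so the gap was 0.884 of the group's range, past the critical value. PSMB11 read -4.95, with the nearest other 5 mM cow at -5.91 and a gap of 0.933 of the range. These are 2 of the 70 groups of member values, and chance marks about 1 in 20. Replicate 1 of the 5 mM group is also the array with epithelial markers at -3.42 and smooth muscle markers at 2.69, whose part in these values was not tested.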

How the results depend on the processing

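The precision of 4 cows a group limits every comparison, and slide and scan could be told apart from the groups only in part. The count of probes past the adjusted threshold stayed at 0 in all 19 alternatives run. The count at an unadjusted p under 0.05 was 595, and 1067 without a filter, 1026 with slide as a block and 1221 with a replicate block. Leaving out 5 mM replicate 2 gave 1528, replicate 4 gave 1065 and replicate 3 gave 376. With 1 cow left out at a time, the smallest adjusted p of any probe was 0.098.

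The members' median difference of 0.038 moved by more than the spread between replicates (0.068) only within slide 3, to 0.198. Leaving out each cow gave medians from -0.0015 (without 0 mM replicate 4) to 0.082, and 17 to 27 genes with a higher mean. Normexp gave 26 genes and a median of 0.074. The share of all tested probes with a higher mean in these fits is not given here. The number of members without overlap, 2, was 1 under quantile normalization, normexp and the deposited value table, 3 under the median shift, and 1 to 4 with 1 cow left out (4 without 5 mM replicate 1). The share of all tested probes in these settings is not given here, and fewer cows make no overlap more likely. Trend, array weights and blocks leave the values behind that count as they are, so it was not recomputed for them. In the fit with the replicate number as a block, 0 probes passed, the members' median was 0.038 and 25 genes had a higher mean. Same-numbered cows correlated at 0.40, 0.36, -0.30 and 0.31 in their deviations from group means (replicates 1 to 4). Different-numbered cows of the 2 groups correlated at -0.49 to 0.33. The arrays of replicates 1, 2 and 4 shared a slide with their same-numbered array and those of replicate 3 did not. Number and slide can therefore be told apart only in part here. The labels give separate cows, and the numbers were not taken to pair them.

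Of 298 alternative values of the 13 members followed per array, 285 stayed within the spread between replicates, 13 moved by more (11 of them within single slides) and 19 had the other sign. None had an adjusted p under 0.05. PSMB10 over PSMB7 was -1.51 within slide 1, and leaving out a cow gave -1.48 to -0.68 for PSMB9 over PSMB6, -1.13 to -0.44 for PSMB10 over PSMB7 and -1.32 to -0.58 for PSMB8 over PSMB5. The causes of these moves were not tested.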
